A study of Mus musculus with 10 samples.

Results

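The genes described here are the well-counted mouse Zfp genes, a large family named for the zinc fingers of their proteins. They were measured in RNA that came down from pituitary lysate with antibodies to Musashi1 and Musashi2. A gene entered by its symbol (Zfp followed by a number), a protein-coding annotation on an autosome and a summed raw count of 2000 or more over the 10 libraries. Zfp36, Zfp36l1 and Zfp36l2, which are named Zfp but bind AU-rich elements in mRNAs, were left out. Of 55416 gene IDs in the table, 382 fitted the name, biotype and chromosome, and 201 of these reached the count. All 201 passed the low-count filter of the test. Within the family the genes were thus chosen by their summed count.

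Lysates were made from pituitaries of control mice 8 to 10 weeks old, of the sighted FVB strain FVB.129P2-Pde6b+Tyrc-ch/Ant. Each lysate pooled 6 pituitaries and was divided equally between control rabbit IgG and a mixture of the Musashi1 and Musashi2 antibodies (Musashi IP), so the RNA of the paralogs cannot be told apart. Lysates 2, 5 and 6 came from females and lysates 3 and 7 from males, which gives 5 IgG and 5 Musashi IP libraries of total RNA, made with a kit that keeps strand. The protocol places the immunoprecipitations on separate occasions, and the labels do not number the animals.

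Musashi proteins bind short U-rich motifs ending in AGU, mostly in 3′ untranslated regions (3′ UTRs), and control translation of the bound mRNA. Most Zfp genes encode C2H2 zinc finger proteins, in which each finger folds around a zinc ion and reads a few bases of DNA or, in some members, RNA. Many also carry a KRAB box, which recruits the corepressor Trim28 and, through it, the histone methyltransferase Setdb1 and heterochromatin proteins; such proteins silence retroelements and imprinted genes, among other loci. Mouse KRAB zinc finger genes lie in clusters and include many recent copies.

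Library totals ran from 6673425 counts in IgG of lysate 3 to 13019326 in the Musashi IP of lysate 6. The Zfp genes together held 1.51% ± 0.11 of the counts in IgG and 1.50% ± 0.08 in Musashi IP (SD, n = 5 each). Of 8 pituitary markers all were detected, 2 were higher in Musashi IP (Fshb and Pitx1) and none was lower; posterior lobe markers (Avp, Oxt, Rax) summed to only 1.28 to 5.27 CPM (counts scaled to the library size). All 3 red cell markers and both immune markers were lower in Musashi IP, with summed levels of 357 to 1162 CPM in IgG and 217 to 604 CPM in Musashi IP for the red cell genes. For the immune genes the sums were 25.2 to 36.1 CPM in IgG and 14.96 to 28.7 CPM in Musashi IP. None of 3 endothelial markers passed; they summed to 40.9 to 203 CPM in IgG and 34.9 to 82.7 CPM in Musashi IP. Lysate 2 stood apart in them, with Kdr at 1110 counts in IgG and 184 in Musashi IP, where lysate 3 had 195 and 443. The part of these cells in the results for the Zfp genes was not tested.

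The proteins fitted the family name. Translated from the longest annotated coding sequence, 198 of the 201 held at least 1 match to the C2H2 pattern and 184 (91.5%) held 3 or more, against 2.10% of the other protein-coding genes. The median was 10 fingers and the maximum 36. Zfp365, Zfp330 and Zfp839 held none by this pattern. A KRAB A-box, scored over 18 conserved places with 12 required, was matched in 98 of the 201 and in 1.06% of the other protein-coding genes; a missing match does not show that the box is absent, since partial and divergent boxes score lower. The genes were spread over all autosomes, with 47 on chromosome 7, 22 on chromosome 17 and 15 on chromosome 8.

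The sequences that follow are stretches of 30 bases from the longest annotated 3′ UTR (GENCODE M21, build GRCm38, transcript strand) of members highest and lowest in Musashi IP. They show what a Musashi motif looks like in these mRNAs and that motifs occur on both sides. Capitals mark every match to 6 forms, written as DNA. The short forms are GTAGT and also ATAGT. The middle forms are GTTAGT and also ATTAGT. The long forms are GTTTAGT and also ATTTAGT. Only the sense strand was searched, overlapping matches were counted, and each stretch is the one with most matches, or the first of these.
Zfp365: tacccagtgcccATTAGTacgtgggcctca
Zfp706: tcatttaataaaGTAGTgctttgattttac
Zfp106: atgcagattttaATTAGTtacccagtttga
Zfp280b: gagtacaagcctGTAGTacgtcggttaatc
Zfp367: GTAGTgaaatgttttaggtcttttgATAGT
Zfp526: agagactgagaaGTAGTgccagttcctgaa
Zfp458: tctcaacataaaGTAGTtcaacctggagtg
Zfp950: aataagcaaATAGTccATAGTaaagctaga
Zfp948: acaagggaataaGTAGTagactcacaaaga
Zfp207: ttcaaatgcatGTAGTAGTggtaaaggtga

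The first 6 genes were higher in Musashi IP and the last 4 lower. Zfp365 has 8 matches in a 3′ UTR of 2727 nt, and its stretch starts at base 225 of the UTR. Zfp706 has 12 in 3909 nt, with the stretch from base 280, and Zfp106 has 6 in 3266 nt, with the stretch from base 295. Zfp950, which was lower in Musashi IP, has 15 matches in 4547 nt, with the stretch from base 4286. Zfp639, the gene with the most negative fold change, has none in a 3′ UTR of 148 nt. A match describes the letters of the annotated UTR and is not a binding site.

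The first comparison asked which Zfp mRNAs came down with Musashi more than with IgG. Of the 201 Zfp genes, 41 (20.4%) rose and 14 (7.0%) fell in Musashi IP against IgG of the same lysates, and 146 did not pass the test. Among all 20550 genes tested, 18.5% rose and 8.40% fell. Among the 14202 protein-coding genes tested the shares were 25.7% and 4.01%, and among the 7945 of these with a summed count of 2000 or more they were 34.0% and 4.76%. The share of Zfp genes that rose was thus near that of all genes and below that of coding genes counted as deeply, and no test of the family against other genes was made. The test was edgeR's quasi-likelihood test with the lysate as a block and Benjamini-Hochberg adjustment over all genes at 0.05. The balance depended on the scaling: with library totals in place of TMM factors (trimmed mean of M values), 27 rose and 42 fell. A correction for transcript length and GC content also turned it, to 29 higher, 23 of them among the 41, and 37 lower. The whole table moved too. Over all genes 3804 rose and 1727 fell in the main fit, and 3149 and 4107 with library totals. With the length and GC correction 3162 of all genes rose and 3223 fell. The count also rested on single lysates, with 26 higher and none lower without lysate 5, 17 higher and 5 lower without lysate 7, 9 lower without lysate 2 and 22 lower without lysate 6. Over all genes 2715 rose and 182 fell without lysate 5, and 2288 and 597 without lysate 7. Without lysate 2, 1790 of all genes fell, and without lysate 6, 1531 fell.

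The median log2 fold change of the 201 genes was 0.06, against −0.07 over all genes tested, 0.09 over coding genes and 0.15 over coding genes of summed count 2000 or more. With library totals the median of the Zfp genes was −0.12 and that of all genes −0.24, and with the length and GC correction they were −0.05 and −0.13. The sign of the family's median thus changed with the setting, while it lay above that of all genes in each of these fits. The quartiles were −0.11 and 0.33, and the range ran from −0.46 to 1.92. Of the 41 that rose, 6 rose more than 2-fold, and none of the 14 that fell did so by 2-fold. Over all genes tested, 1452 of the 3804 that rose and 56 of the 1727 that fell did so by more than 2-fold. Among coding genes of summed count 2000 or more these were 973 of 2700 and 0 of 378. The log2 fold change of the 41 had a median of 0.57, against 0.82 for the other well-counted coding genes that rose. Of the 41, 40 were higher in all 5 lysates, and all 14 that fell were lower in all 5. Over all genes tested this held for 3622 of the 3804 that rose and 1636 of the 1727 that fell. Such agreement was thus common among genes called by the lysate-blocked test and not particular to the Zfp genes. In 29 of the 201 genes every Musashi IP library lay above every IgG library, where 9.69% of all genes tested did, 13.6% of the coding genes and 19.5% of the coding genes of summed count 2000 or more. In 2 every Musashi IP library lay below every IgG library, where 1.98%, 1.35% and 1.60% did.

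**Figure D1:**
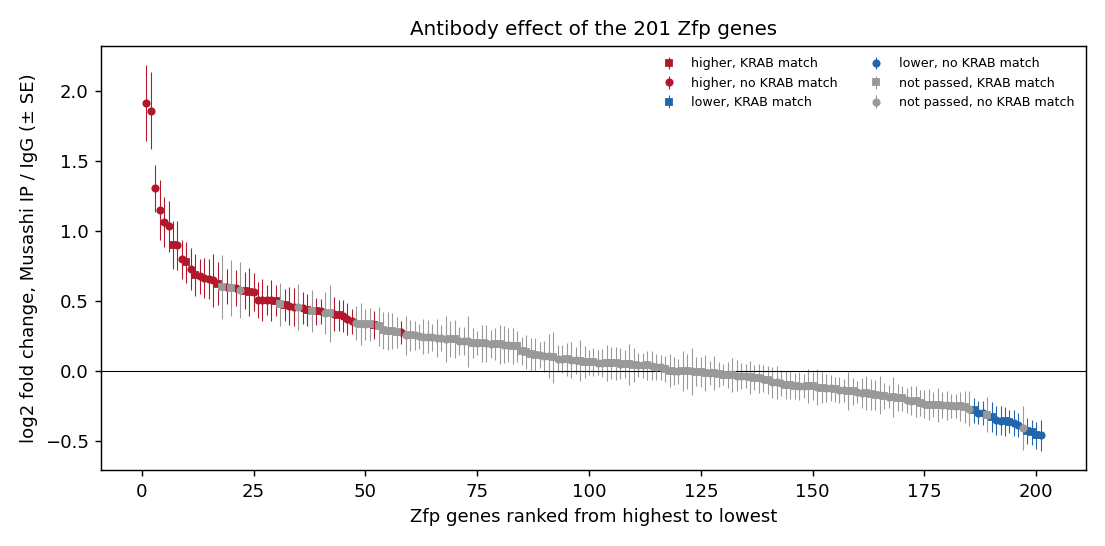
The log2 fold change of Musashi IP over IgG (y axis, with SE, 5 lysates) for the 201 Zfp genes ranked from highest to lowest (x axis). Red marks the 41 that rose, blue the 14 that fell and grey the rest, squares mark a KRAB match and circles none; the fold changes are relative to TMM scaling, under which 118 of the 201 are above 0.

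Zfp365, which acts at the centrosome and in genome stability in other cells, had the largest fold change (ENSMUSG00000037855, chromosome 10). Its summed IgG count was under 1000, so Musashi IP counts helped it past the count minimum. It measured 26.6, 11.1, 22.8, 17.9 and 13.4 CPM in IgG and 65.2, 28.6, 77.4, 178 and 48.3 CPM in Musashi IP of lysates 2, 3, 5, 6 and 7. Every Musashi IP library was above every IgG library, and that of lysate 6 was the highest by far. The log2 fold change was 1.92 ± 0.27 (SE; edgeR adjusted p = 0.0038), and 1.57 without lysate 6.

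Zfp706, a small single-finger protein studied in embryonic stem cells (ENSMUSG00000062397, chromosome 15), was close behind. It measured 51.6, 32.9, 46.0, 38.9 and 40.8 CPM in IgG and 112, 86.6, 172, 374 and 131 CPM in Musashi IP, in the same order of lysates. The groups did not overlap and the lysate 6 library was again the highest. Its log2 fold change was 1.86 ± 0.27 (SE; edgeR adjusted p = 0.0040), and 1.53 without lysate 6. Its exons overlap those of a gene on the opposite strand (Gm26766), and the strand setting of the counting is not given in the sources used here.

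Zfp106, an RNA-binding protein that mice need to keep motor neurons and muscle, had the most counts of all 201 genes (39475 in sum; ENSMUSG00000027288, chromosome 2). Its level was 271, 210, 244, 229 and 227 CPM in IgG and 491, 402, 613, 991 and 560 CPM in Musashi IP. The IgG libraries lay close together and all Musashi IP libraries lay above them. The log2 fold change was 1.31 ± 0.17 (SE; edgeR adjusted p = 0.0034).

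Zfp280b, on chromosome 10, measured 23.8, 20.3, 18, 18.3 and 16.6 CPM in IgG and 37.6, 28.6, 48.8, 75.5 and 35.6 CPM in Musashi IP, a log2 fold change of 1.15 ± 0.21 (SE). Zfp367, on chromosome 13, went from 15.7 ± 3.5 CPM in IgG to 34.4 ± 15.7 in Musashi IP (SD, n = 5 each). Zfp526, on chromosome 7, went from 22.0 ± 4.2 to 46.2 ± 15.5 CPM. Their log2 fold changes were 1.06 ± 0.18 and 1.03 ± 0.19 (SE), and neither gene had overlapping groups. Zfp280b, Zfp367 and Zfp526 each had a summed IgG count under 1000, so Musashi IP counts helped them past the count minimum.

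The next 4 genes by fold change were also separated in all libraries. Zfp84, a KRAB protein gene on chromosome 7, measured 29, 24, 25.8, 25.9 and 25 CPM in IgG and 39.2, 34.1, 47.0, 80.1 and 51.3 CPM in Musashi IP (log2 fold change 0.90 ± 0.17). Zfp24, needed for myelination in the central nervous system, went from 55.6 ± 6.2 to 108 ± 38 CPM (0.90 ± 0.18). Zfp652, a transcriptional repressor, went from 127 ± 12 to 227 ± 61 CPM (0.80 ± 0.14). Zfp871, a KRAB protein gene with 15 fingers and the second most counts (35822), went from 282 ± 15 to 499 ± 159 CPM (0.78 ± 0.14). The adjusted p of these 10 genes ran from 0.0034 to 0.0091 (edgeR), and all 10 passed in the same direction in each of 12 alternative fits.

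**Figure D2:**
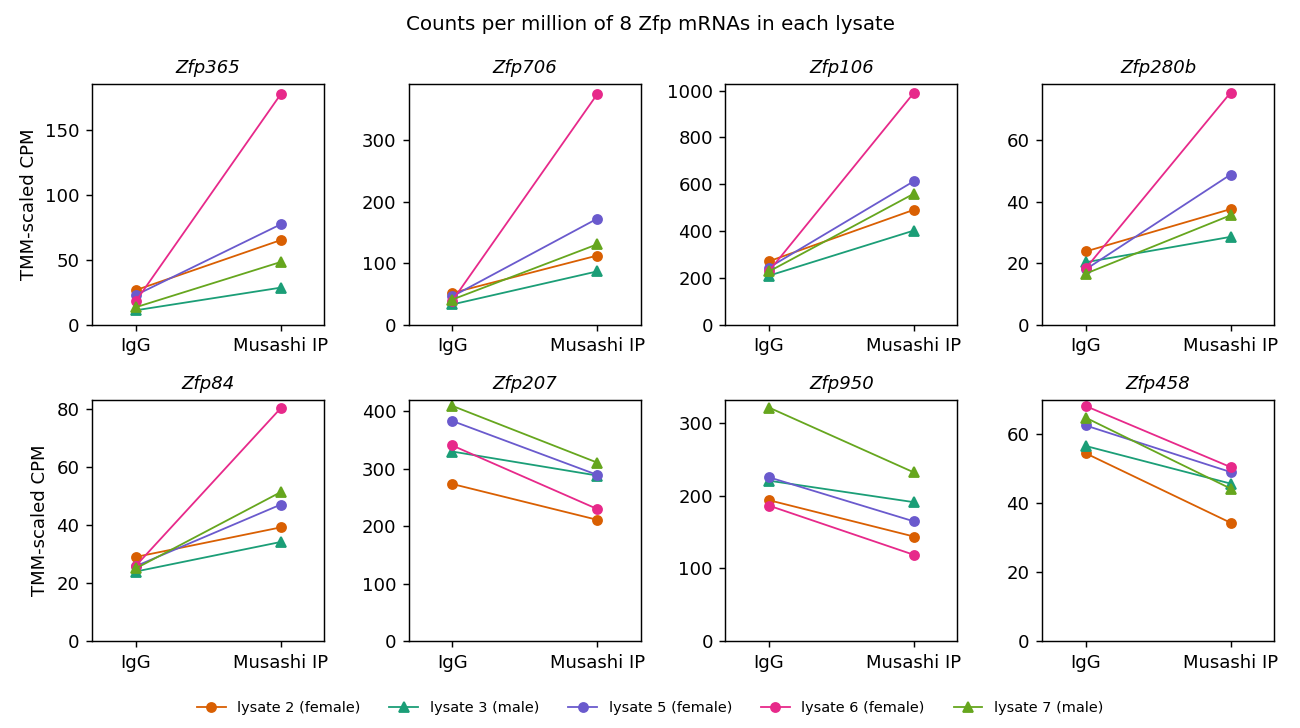
TMM-scaled CPM (y axis, starting at 0) in the IgG and Musashi IP library of each lysate, joined by a line, for 5 Zfp mRNAs that rose and 3 that fell. Circles are female and triangles male lysates; all 5 lines go up in Zfp365, Zfp706, Zfp106, Zfp280b and Zfp84, with lysate 6 at the top, and down in Zfp207, Zfp950 and Zfp458.

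The other 31 genes that rose did so by log2 fold changes of 0.28 to 0.73. In order of size they were Zfp518b, Zfp334, Zfp664, Zfp651, Zfp740, Zfp41, Zfp952, Zfp451, Zfp319, Zfp354c, Zfp266, Zfp346, Zfp704, Zfp408, Zfp46, Zfp180, Zfp866, Zfp568, Zfp37, Zfp507, Zfp446, Zfp251, Zfp316, Zfp629, Zfp146, Zfp790, Zfp827, Zfp217, Zfp609, Zfp12 and Zfp516. Zfp827 was the 1 gene of the 41 that was not higher in all lysates (log2 ratio −0.01 in lysate 3). In 28 of the 41 the groups did not overlap. Every Musashi IP library lay above every IgG library in 19.5% of all 7945 well-counted coding genes, called or not.

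The decreases were smaller. Zfp639, on chromosome 3 (ENSMUSG00000027667), measured 45.7, 45.4, 44.4, 47.1 and 52.8 CPM in IgG and 27.7, 40.7, 35.2, 31.4 and 36.8 CPM in Musashi IP. All Musashi IP libraries were below all IgG libraries, with lysate 3 the closest to its control. The log2 fold change was −0.46 ± 0.11 (SE; edgeR adjusted p = 0.018). Zfp458, a KRAB protein gene on chromosome 13 with 20 fingers (ENSMUSG00000055480), measured 54.5, 56.6, 62.5, 68.2 and 64.8 CPM in IgG and 34.4, 45.7, 49.1, 50.5 and 44.3 CPM in Musashi IP. Its groups did not overlap either, and the log2 fold change was −0.46 ± 0.10 (SE; edgeR adjusted p = 0.011). These were the 2 genes with every Musashi IP library below every IgG library.

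Zfp950, on chromosome 19, fell in each lysate, from 194, 220, 225, 186 and 321 CPM in IgG to 144, 191, 165, 119 and 232 CPM in Musashi IP. The groups overlapped, with lysate 7 the highest in both. Zfp948, on chromosome 17, went from 39.2 ± 4.9 to 29.2 ± 5.0 CPM, and Zfp277, on chromosome 12, from 60.7 ± 7.8 to 47.0 ± 7.3 CPM (SD, n = 5 each). Their log2 fold changes were −0.44 ± 0.09, −0.43 ± 0.09 and −0.37 ± 0.09 (SE). The KRAB protein genes Zfp788 and Zfp607a, both on chromosome 7, fell by 0.36 on the log2 scale, each with overlapping groups. Zfp788 was even across lysates, with log2 ratios of −0.37, −0.35, −0.33, −0.33 and −0.43. Zfp971, Zfp280d, Zfp638 and Zfp715 fell by 0.28 to 0.33, and Zfp207, Zfp521 and Zfp326 are described with their roles. Without lysate 5 none of the 14 passed. All 14 passed without lysate 3 or lysate 6, 8 of them without lysate 2 and 5 without lysate 7. Each of these fits left 3 residual degrees of freedom.

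Lysate 6 stood apart. Over the 201 genes the median log2 ratio of Musashi IP to IgG was 0.00, 0.00, 0.07, 0.31 and 0.07 in lysates 2, 3, 5, 6 and 7, where other well-counted coding genes had 0.10, 0.08, 0.14, 0.40 and 0.16. Lysate 6 gave the highest of the 5 ratios in 39 of the 41 genes that rose, with a median ratio of 1.09 against 0.37, 0.27, 0.57 and 0.52 in lysates 2, 3, 5 and 7. Lysate 3 gave the highest ratio, the one nearest to 0, in 10 of the 14 that fell. Without lysate 6, 42 genes rose, 40 of them among the 41, and 22 fell, with all 14 among them.

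**Figure D3:**
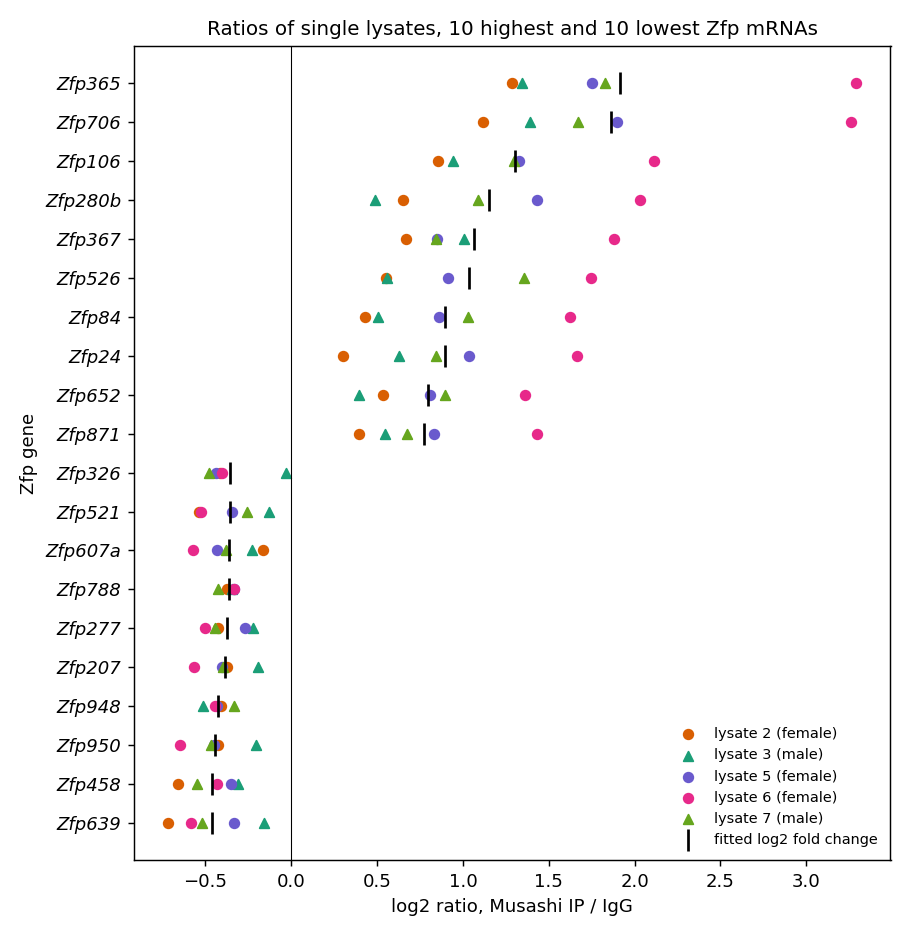
The log2 ratio of Musashi IP to IgG (x axis) in each of 5 lysates for the 10 highest and the 10 lowest Zfp mRNAs past the threshold (y axis). Circles are female and triangles male lysates, and a black bar marks the fitted value; lysate 6 has the highest ratio in all 10 upper genes (3.29 for Zfp365), while the 10 lower genes lie between −0.72 and −0.03 in single lysates.

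The genes were then described by protein features. Of the 98 genes with a KRAB match, 12 rose (12.2%) and 7 fell (7.14%). Their median was 0.04 on the log2 scale, and none rose above 2-fold. The largest were Zfp84, Zfp871 and Zfp334 (0.90, 0.78 and 0.69). Of the 103 without a match, 29 rose (28.2%) and 7 fell (6.80%), with a median of 0.11. All 6 genes that rose above 2-fold were among the 103. The difference between these groups was not tested. Of all well-counted coding genes 34.0% rose and 4.76% fell. By number of fingers, 8 of 25 genes with 0 to 3 fingers rose (32%) and 4 fell (16%). Of 36 genes with 4 to 7 fingers 7 rose (19.4%) and 1 fell (2.78%). Of 55 with 8 to 11 fingers 14 rose (25.5%) and 1 fell (1.82%), and of 85 with 12 or more 12 rose (14.1%) and 8 fell (9.41%). With library totals, 8 genes with a KRAB match rose and 23 fell, and 19 without a match rose and 19 fell. With the length and GC correction, 11 with a match rose and 15 fell, and 18 without a match rose and 22 fell. On chromosome 7, which holds the most of these genes, 9 of 47 rose (19.1%) and 3 fell (6.38%), shares near those of the whole family.

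The 3′ UTRs of the genes that rose were longer at the median. The length was 3230 nt in the 41 that rose, 1690 nt in the 146 not passed, and 1227.5 nt in the 14 that fell. Of the 146, 143 had a UTR of at least 100 nt. Under 1000 nt, 2 of 42 genes rose (4.76%) and 6 fell (14.3%). From 1000 to 2000 nt, 4 of 64 rose (6.25%) and 6 fell (9.38%). From 2000 to 4000 nt, 25 of 62 rose (40.3%) and 1 fell (1.61%), and at 4000 nt or more 10 of 30 rose (33.3%) and 1 fell (3.33%). In the other well-counted coding genes the share that rose was 14.4%, 38.0%, 47.6% and 53.1% over the same lengths. The share that fell in those genes was 7.95%, 3.58%, 2.57% and 2.45%. The Zfp genes that rose with a short 3′ UTR were Zfp146 (468 nt) and Zfp790 (774 nt), and Zfp950 (4547 nt) fell with a long one.

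Across the 198 genes with a usable 3′ UTR, Spearman's correlation of the log2 fold change with UTR length was 0.44 and Pearson's r 0.33. The Spearman correlation was 0.41 in the 95 with a KRAB match, 0.51 in the 103 without and 0.41 in 7570 other well-counted coding genes. In single lysates 2, 3, 5, 6 and 7 it was 0.20, 0.38, 0.42, 0.47 and 0.39. With coding length the Spearman correlation was −0.22, and it was −0.21 with the number of fingers, 0.23 with GC content and 0.02 with the summed count. With the IgG level per kb of transcript it was −0.31, and −0.27 in the other well-counted coding genes. The IgG level also enters the fold change itself. These are correlations across genes measured in the same libraries, which are not independent replicates, so no p is given.

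**Figure D4:**
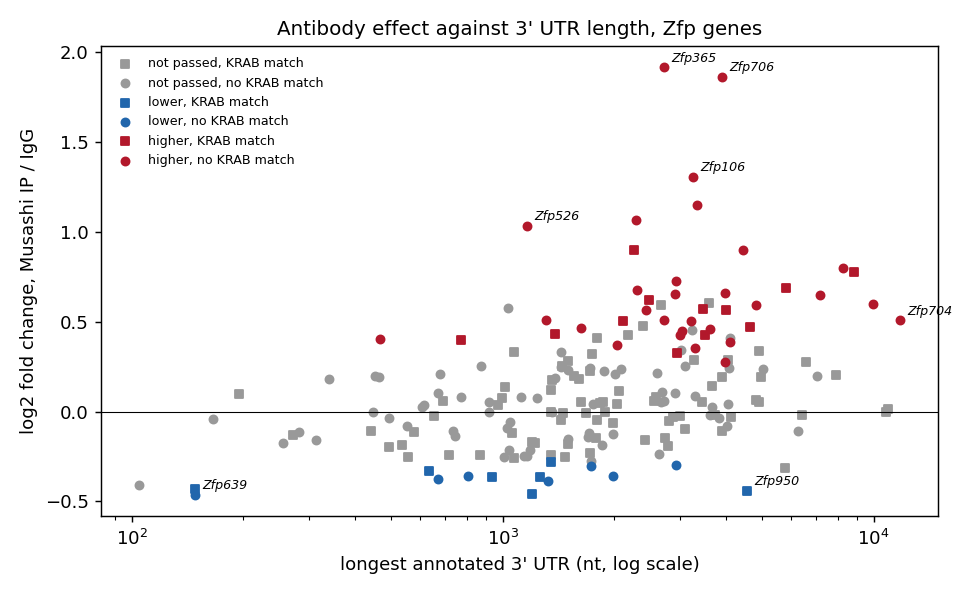
The log2 fold change of Musashi IP over IgG (y axis) against the length of the longest annotated 3′ UTR (x axis, log scale) for the 198 Zfp genes with at least 100 nt. Red marks genes that rose and blue those that fell; of 106 points left of 2000 nt 6 are red, and of 92 points to the right 35 are.

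The Musashi motif was common on both sides. At least 1 of the 6 forms stood in the 3′ UTR of 180 of the 198 Zfp genes (90.9%), of 79.4% of the other well-counted coding genes and of 73.2% of all 13609 tested coding genes with such a UTR. All 41 genes that rose and 13 of the 14 that fell held one. ATAGT was the most frequent form, in 77.8% of the Zfp UTRs and 54.7% of all, followed by GTAGT in 68.7% and 50.9%. The Spearman correlation of the log2 fold change with the number of matches was 0.28, and with matches per kb it was −0.06. The median density was 1.84 matches per kb in genes that rose and 3.24 in genes that fell.

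Among Zfp proteins known to act on RNA or translation, 7 of a list of 10 were well counted. Of these 2 rose (Zfp106 and Zfp346) and 3 fell (Zfp207, Zfp326 and Zfp638), beside 34.0% and 4.76% of all well-counted coding genes; so short a list says nothing about such proteins as a group. Zfp326 and Zfp638 kept the call in 7 of 12 alternative fits each, Zfp346 in 9 and Zfp207 in 10. Zfp346, which binds double-stranded RNA, measured 40.1, 50, 49.8, 50.1 and 37.9 CPM in IgG and 56.9, 56.5, 68.0, 107 and 57.0 CPM in Musashi IP, without overlap (log2 fold change 0.56 ± 0.13). Zfp207, a partner of the spindle checkpoint protein Bub3 that also acts in splicing, measured 273, 330, 383, 340 and 409 CPM in IgG and 211, 288, 289, 230 and 311 CPM in Musashi IP. It fell in each lysate by 0.39 ± 0.09 on the log2 scale (SE; edgeR adjusted p = 0.014), although the groups overlapped. Per kb of transcript it had the highest IgG level of the 201 genes, 106 CPM per kb, where the median was 11.2. Zfp638, a nuclear protein that silences unintegrated retroviral DNA, went from 370 ± 65 to 300 ± 51 CPM (−0.30 ± 0.08), and Zfp326, which couples transcription to splicing, from 67.3 ± 14.2 to 52.7 ± 11 CPM (−0.36 ± 0.10). Zfp598, a ubiquitin ligase that senses collided ribosomes, had a log2 fold change of −0.08 ± 0.11 and Zfp622, a factor of large ribosomal subunit maturation, −0.21 ± 0.11; neither passed.

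Among developmental and other DNA-binding regulators, 17 of a list of 19 were well counted, 5 rose (29.4%) and 1 fell (5.88%), shares near the 34.0% and 4.76% of well-counted coding genes. Besides Zfp652, those that rose were Zfp704, Zfp217, Zfp609 and Zfp516, by log2 fold changes of 0.51 ± 0.13, 0.37 ± 0.12, 0.35 ± 0.09 and 0.28 ± 0.08 (SE). Zfp217 acts with corepressors, and Zfp516 activates the thermogenic program of brown fat. Of the 12 alternative fits, Zfp652 kept the call in all, Zfp704 in 9, Zfp609 and Zfp521 in 7 each, and Zfp217 and Zfp516 in only 2 each. Zfp521, a regulator of stem and progenitor cells, fell by 0.36 ± 0.11. Its relative Zfp423, which marks commitment to the fat lineage, had a log2 fold change of 0.11 ± 0.11 and did not pass. Zfp292, first described as a factor that acts with Pou1f1 on the growth hormone promoter, measured 228, 216, 236, 213 and 250 CPM in IgG and 188, 214, 198, 184 and 223 CPM in Musashi IP. It was lower in every lysate with overlapping groups and did not pass (−0.19 ± 0.08; edgeR adjusted p = 0.13). Zfp148, Zfp281, Zfp219, Zfp462, Zfp536, Zfp608, Zfp335, Zfp644 and Zfp384 did not pass either, with log2 fold changes from −0.25 to 0.24.

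Of 6 listed genes for imprinting and retroelement silencing, 3 were well counted. Of these 1 rose and none fell, beside 34.0% and 4.76% of all well-counted coding genes. Zfp568, which silences a placental transcript of Igf2, measured 44.9, 42.8, 43.7, 50.9 and 50.1 CPM in IgG and 52.3, 53.3, 64.6, 90.8 and 67.0 CPM in Musashi IP. The groups did not overlap and it rose by 0.47 ± 0.11 on the log2 scale (SE; edgeR adjusted p = 0.018). The call was lost without the lysate block, without lysate 7 and with the length and GC correction, which gave 0.19. Zfp445, a keeper of imprints, had the most counts of the genes that did not pass (26060). It measured 281, 303, 289, 288 and 324 CPM in IgG and 270, 304, 288, 288 and 307 CPM in Musashi IP, so that each lysate's libraries were nearly level (−0.03 ± 0.08). Zfp809, which silences murine leukaemia viruses, was at 0.28 ± 0.13 and did not pass. The next most counted genes that did not pass were Zfp949, Zfp644, Zfp292 and Zfp512b, at −0.24 ± 0.09, −0.15 ± 0.08, −0.19 ± 0.08 and 0.06 ± 0.09.

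Of 5 genes of the ubiquitin and SUMO pathways and other roles, Zfp365 and Zfp451 rose (40%) and none fell. Of all well-counted coding genes 34.0% rose and 4.76% fell, and so short a list says nothing about such genes as a group. Zfp451, a SUMO ligase with a 3′ UTR of 9984 nt and 36 motif matches, measured 223, 233, 249, 240 and 310 CPM in IgG and 284, 309, 373, 538 and 440 CPM in Musashi IP. It was higher in each lysate, and the groups overlapped, with IgG of lysate 7 at the level of Musashi IP of lysates 2 and 3 (0.60 ± 0.13). Zfp91, Zfp746, a substrate of parkin, and Zfp410, an activator of Chd4, had log2 fold changes of 0.34 ± 0.12, 0.25 ± 0.09 and −0.06 ± 0.10 and did not pass.

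Partners of KRAB proteins in silencing were read from the same fit. Of 36 genes tested from a list of 37 names, 3 rose (8.33%) and 2 fell (5.56%), and the median on the log2 scale was −0.08. Of all genes tested 18.5% rose and 8.40% fell, and of the protein-coding genes tested 25.7% and 4.01%. Among coding genes of summed count 2000 or more the shares were 34.0% and 4.76%. Cbx5, a heterochromatin protein, measured 356, 257, 313, 316 and 294 CPM in IgG and 597, 484, 721, 1261 and 668 CPM in Musashi IP, a log2 fold change of 1.21 ± 0.17. Trim66 rose by 0.67 ± 0.12 and Suv39h1 by 0.66 ± 0.16, while Suv39h2 was lower (−0.48 ± 0.15; edgeR adjusted p = 0.046). Trim28, the direct partner of the KRAB box, fell by 0.32 ± 0.10 (SE; edgeR adjusted p = 0.044), from 139 ± 19 to 113 ± 25 CPM. Both decreases were lost without lysate 2, 5 or 7, without the lysate block or without the low-count filter, and 12 of the 36 were lower with library totals and 18 with the length and GC correction. Setdb1 did not pass (−0.20 ± 0.09).

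The sexes were compared next, first in the antibody effect. None of the 201 genes differed in it between 3 female and 2 male lysates, and none of 20550 genes did (0.00%; edgeR, DESeq2 and limma-voom alike). At an unadjusted p under 0.05 there were 0 Zfp genes and 187 genes in all by edgeR, 50 genes by DESeq2 and 193 by limma-voom, with no Zfp gene in either. Without lysate 2 these edgeR counts were 9 and 1722 genes, without lysate 6 they were 1 and 462, and without the low-count filter 0 and 664, with no gene past the adjusted threshold in any of these fits. The SE of the difference had a median of 0.25 on the log2 scale, so differences of that size lay within the error. The 5 genes of smallest p were Zfp651, Zfp334, Zfp324, Zfp280b and Zfp800, with female minus male differences of 0.51 ± 0.26, 0.46 ± 0.29, 0.45 ± 0.29, 0.59 ± 0.42 and −0.36 ± 0.25 (SE).

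Within IgG, where levels stand for RNA that came down with control antibody, 2 of the 201 genes differed between the sexes, where 4.50% of 20987 genes tested did (2.66% with the higher level in females). That background rested on single libraries: the 945 genes behind it became 172 without IgG of lysate 3, 195 without that of lysate 7 and 1354 without that of lysate 2. Zfp804a, known from psychiatric genetics, had raw counts of 599, 316 and 287 in the female IgG libraries 2, 5 and 6 and of 2 and 10 in the male libraries 3 and 7. The Musashi IP libraries of the same lysates had 511, 376 and 403 counts in females and 6 and 7 in males. Every female library was thus far above every male one, in both kinds of library, while its antibody effect was 0.00 ± 0.17. Nearly all its counts were female, so it passed the count minimum through the sex in which it was high. The female minus male log2 difference in IgG was 5.85 ± 0.50 (SE; edgeR adjusted p = 5.7e-05), and it ran from 5.15 to 7.37 when 1 IgG library was left out. Within Musashi IP it was 6.20 ± 0.42.

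Zfp521 was lower in females, at 26.3, 31.7 and 31.9 CPM in IgG against 52.3 and 52.6 CPM in males. In Musashi IP it was at 18, 24.9 and 22.1 CPM in females and 47.8 and 43.9 CPM in males, so the sexes did not overlap in either kind of library. The female minus male log2 difference in IgG was −0.81 ± 0.18 (SE; edgeR adjusted p = 0.024). It did not pass without IgG of lysate 3, 5 or 7 (adjusted p = 0.18, 0.051 and 0.18), and in Musashi IP it was −1.10 ± 0.22 (adjusted p = 0.030). Zfp827, Zfp365 and Zfp945 were next by p and did not pass, at 0.65 ± 0.18, 0.86 ± 0.25 and −0.45 ± 0.16. Each lysate pools 6 pituitaries, and in such a pool fewer cells of a type and less RNA per cell cannot be told apart.

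**Figure D5:**
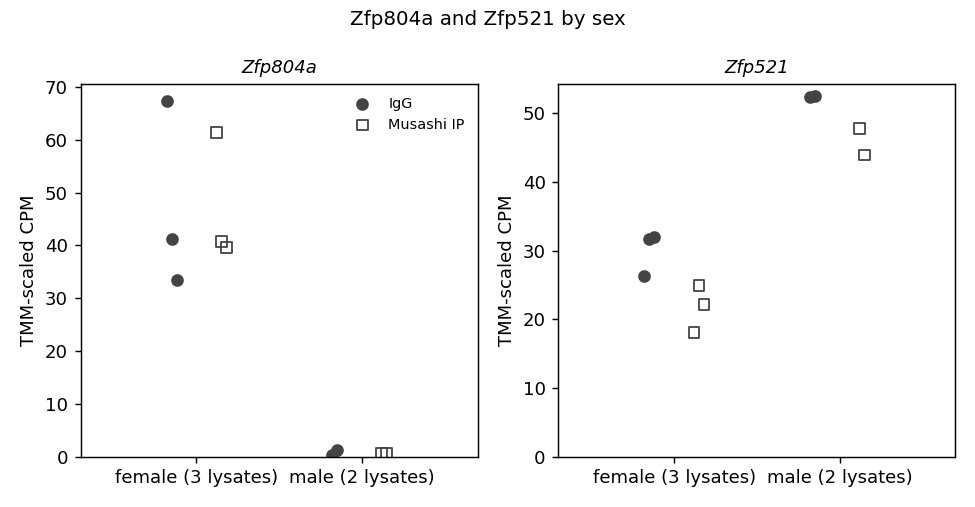
TMM-scaled CPM (y axis, starting at 0) of Zfp804a and Zfp521 in 3 female and 2 male lysates (x axis), with filled circles for IgG and open squares for Musashi IP. Zfp804a is at 33.5 CPM or more in every female library and at 1.32 CPM or less in every male one, and Zfp521 is lower in all female libraries.

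Close copies could share reads. In 18 of the 201 genes more than 10% of the transcript's 50-base words also occurred in another gene, from 11.7% to 52.6%; of these Zfp866 rose and Zfp971 fell. Exons of 66 genes overlapped another gene's exons, 16 of them on the same strand, and of the 66 genes 12 rose and 2 fell. Of the 125 genes in neither class, 29 rose and 11 fell. At the count minimum, Zfp59, Zfp112 and Zfp174 lay just inside (2011, 2016 and 2024 counts; log2 fold changes −0.00, −0.24 and 0.24), and Zfp946, Zfp553 and Zfp873 just outside (1974, 1895 and 1858 counts; 0.36, 0.63 and −0.04). Since Musashi IP counts enter the sum, a gene can pass through them: 22 of the 201 had fewer than 1000 counts in IgG, of which 7 rose and none fell, and of the other 179, 34 rose and 14 fell. Zfp365, Zfp280b, Zfp367 and Zfp526 were among the 7, so their entry and their rise draw on the same counts. Of the 141 Zfp genes under the minimum that were tested, 7 rose and 8 fell.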

How the data were processed

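RNA was sequenced from Musashi and control IgG immunoprecipitates of 5 pituitary lysates. The authors deposited raw read counts per Ensembl gene, without normalization, in 1 table. Per the submitters' processing notes, reads went through FastQC 0.11.8, Trimmomatic 0.39 and STAR 2.7.1a, with the build GRCm39. Which program counted reads, with which strand setting and rule for multi-mapped reads, is not given in the sources used here. Symbols, biotypes, transcripts and 3′ UTRs came by gene ID from GENCODE M21 (GRCm38; 52135 of 55416 IDs, 94.1%, matched), which precedes the build of the counts, so coordinates are left out. KRAB boxes and fingers were read from translated GENCODE coding sequences, where RefSeq proteins had been planned.

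Counts were filtered with filterByExpr, scaled with TMM and tested with edgeR 4.0.16 (R 4.3.3; quasi-likelihood, Benjamini-Hochberg at 0.05 over all genes), with the lysate blocked (residual degrees of freedom 4) or, for the sex difference of the antibody effect, nested in sex (3). The sexes were compared unpaired within IgG. The SE is the log2 fold change divided by the root of F. Lysate ratios used a prior count of 2. DESeq2 1.42.0 and limma 3.58.1 (voom) were alternatives, as were other scalings, no filter, a length and GC correction, no lysate block, other count minimums and leaving out each lysate. The fits were also run on simulated counts with few changed genes, up or down at equal odds, and no difference between lysates but library size. These data differ in both respects, so the simulation does not bear on how reliable the calls here are. In the shallowest library 1 count equals 0.150 CPM; p-values measure the spread between lysates.

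The lysate number pairs the libraries, since each lysate was split; deviations of same-numbered libraries correlated at 0.523, 0.679, 0.602, 0.186 and 0.778 in lysates 2, 3, 5, 6 and 7. In lysate 6 this was below its highest correlation with a library of another number (0.415); in the other 4 it was above.

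Members, gene lists and rules were chosen with earlier results of these data known. Named were the 10 higher and 10 lower genes of largest fold change past the threshold with 1 sign in all lysates, the 5 most counted genes, the 5 most counted not passed, the genes at the count minimum, the role lists, and the leading genes of each sex comparison; others that rose or fell are named only.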

Additional observations from a re-analysis of the deposited data

Results flagged for a closer look

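Among 32 sets of 5 values examined, 6 held 1 lysate far from the other 4 by Dixon's test at 95%, where chance gives about 1 set in 20. In lysate 6 the median log2 ratio of Musashi IP to IgG was 0.31 over the 201 Zfp genes and 0.36 over the 98 with a KRAB match, the highest of the 5 lysates in both. Lysate 6 also gave the far values of Zfp365 (log2 ratio 3.29), Zfp367 (1.88) and Zfp451 (1.16). In lysate 3 the ratio of Zfp326 was −0.030, the nearest to 0 of its 5 values.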

How the results depend on the processing

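The lysate number pairs the libraries; without the replicate block 22 Zfp genes rose and 2 fell, 5 and 1 of them with a KRAB match, 17 and 1 without, and no corepressor fell (0). With library totals 27 rose and 42 fell (KRAB match 23 fell; no match 19 rose and 19 fell), and 12 corepressors fell. With the length and GC correction 37 Zfp genes fell (KRAB match 15; no match 22, with 18 higher), and 5 corepressors rose and 18 fell. Without the low-count filter 7 Zfp genes fell (4 and 3 with and without KRAB match) and 0 corepressors; with DESeq2 1 corepressor fell; at a summed count of 4000 or more 9 Zfp genes fell. Leaving out each lysate gave 17 to 45 Zfp genes higher and 0 to 22 lower, 4 to 17 and 0 to 13 with KRAB match, 13 to 28 (29 in the full data) and 0 to 10 without, 2 to 4 corepressors higher and 0 to 5 lower. Leaving out each IgG library gave 1 to 3 Zfp genes that differed by sex. The cause was not tested. Every fit without 1 lysate had fewer samples than the main fit, and all of these fits had the same number.

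The single-gene results numbered 63. They were the antibody effects of the named genes and the sex differences in IgG of Zfp804a, Zfp521, Zfp365, Zfp827 and Zfp945. Of their 736 alternative values, 715 kept the direction, and 76 lost the call, most often without the block (16), lysate 5 (15) or lysate 7 (13). Those that changed sign had not passed the antibody test. With the length and GC correction they were Zfp746 (−0.036), Zfp174 (−0.030), Zfp219 (−0.017), Zfp462 (−0.133), Zfp423 (−0.171) and Zfp512b (−0.221). With library totals Zfp462, Zfp423 and Zfp512b were at −0.067, −0.072 and −0.119. Zfp59 was at 0.0011 without the block and 0.0070 without the filter, and Zfp804a at 0.0097 with voom. Leaving out each lysate gave −0.0076 to 0.152 for Zfp462, −0.0026 to 0.141 for Zfp423, −0.032 to 0.107 for Zfp512b, −0.126 to 0.113 for Zfp59, −0.131 to 0.062 for Zfp804a, −0.125 to 0.020 for Zfp445 and −0.155 to 0.0051 for Zfp536.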
